A study of Mus musculus with 9 samples.

Results

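The endothelium of brain arteries and that of brain veins carry separate transcriptional programmes, and 9 genes that mark them were followed in the accessible chromatin of sorted mouse brain endothelial cells (ECs). The arterial genes were Efnb2, Unc5b, Sema3g, Bmx, Vegfc, Mgp and Gkn3 (7 genes) and the venous genes were Nr2f2 and Ephb4 (2 genes). All peaks that the deposited annotation names for these genes were taken, which gave 277 of 253457 peaks in 9 lists. Accessibility was measured by Omni-ATAC-seq, in which the transposase Tn5 cuts and tags open chromatin.

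All mice of the 4 groups carried a tamoxifen-inducible Cre recombinase driven by the Cdh5 (VE-cadherin) promoter and received tamoxifen, controls included. Young WT Cre (n = 2 libraries) and old WT Cre (n = 2) kept the transcription factor gene Klf4, whereas young EC-K4KO (n = 3) and old EC-K4KO (n = 2) also carried floxed Klf4, which the Cre deletes in ECs. The labels give age as young or old only and do not give the sex behind a library or whether animals were pooled, so p-values measure the spread between libraries. Cdh5-driven Cre acts in arterial, capillary and venous ECs alike, and the libraries mix all of them, so fewer arterial or venous cells and less open chromatin per cell cannot be told apart here.

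Arterial ECs are set apart early by Notch signalling, and they display ephrin-B2, the product of Efnb2, on their surface. Venous ECs carry the matching receptor EphB4 and depend on the nuclear receptor COUP-TFII, the product of Nr2f2, which holds Notch signalling down. In the adult brain these programmes run as a gradient along the vessel tree, with capillary ECs between the arterial and venous ends.

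List length framed every comparison. The lists held 6157 and 9598 peaks in young WT Cre, 23848 to 27992 in young EC-K4KO and 32555 to 45026 in the old groups, and read depth is unknown because only peak lists were used. A peak is described by its rank in its own list, where 1 is the largest deposited -log10 p, so a region that would rank below the end of a short list cannot appear in it. Library names carry one prefix for all young and another for all old libraries, so a batch and age cannot be told apart, while genotypes were compared within prefix. Promoter peaks of 12 pan-endothelial genes were found for 8 in each young WT Cre library and for 9 to 12 in the others. Of 10 mural cell genes, 0 had a promoter peak in the young libraries, 0 and 3 in old WT Cre, and 5 and 3 in old EC-K4KO, with Rgs5, Abcc9, Vtn and Notch3 at 0 throughout. Promoter peaks were found in no library for any of 8 microglial genes, and per library for at most 2 of 7 astrocyte, 1 of 7 neuronal, 1 of 7 oligodendrocyte and 1 of 6 fibroblast genes. Klf4 itself had a promoter peak in all 9 libraries. It ranked 3588 and 2467 in young WT Cre, 911, 1155 and 1414 in young EC-K4KO, 5797 and 4166 in old WT Cre, and 3387 and 3502 in old EC-K4KO. Within each age the EC-K4KO libraries thus ranked it above the WT Cre libraries. Since the deleted part of the gene was not given, these ranks cannot check the genotype labels.

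The 9 genes gained peaks from young WT Cre to the other groups, and mostly away from promoters. Young WT Cre libraries had 4 and 9 of their peaks, young EC-K4KO libraries 24, 20 and 21, old WT Cre libraries 70 and 31, and old EC-K4KO libraries 55 and 43. The counts of young WT Cre lay below those of every other library, and the 4 old libraries lay above all 5 young ones. Relative to list length the order was less clear, with 0.650 and 0.938 peaks of these genes per 1000 peaks in young WT Cre, 0.750 to 1.01 in young EC-K4KO, 1.59 and 0.952 in old WT Cre, and 1.22 and 1.10 in old EC-K4KO. The second old WT Cre library thus overlapped the young range, and the first stood highest of the 9.

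**Figure D1:**
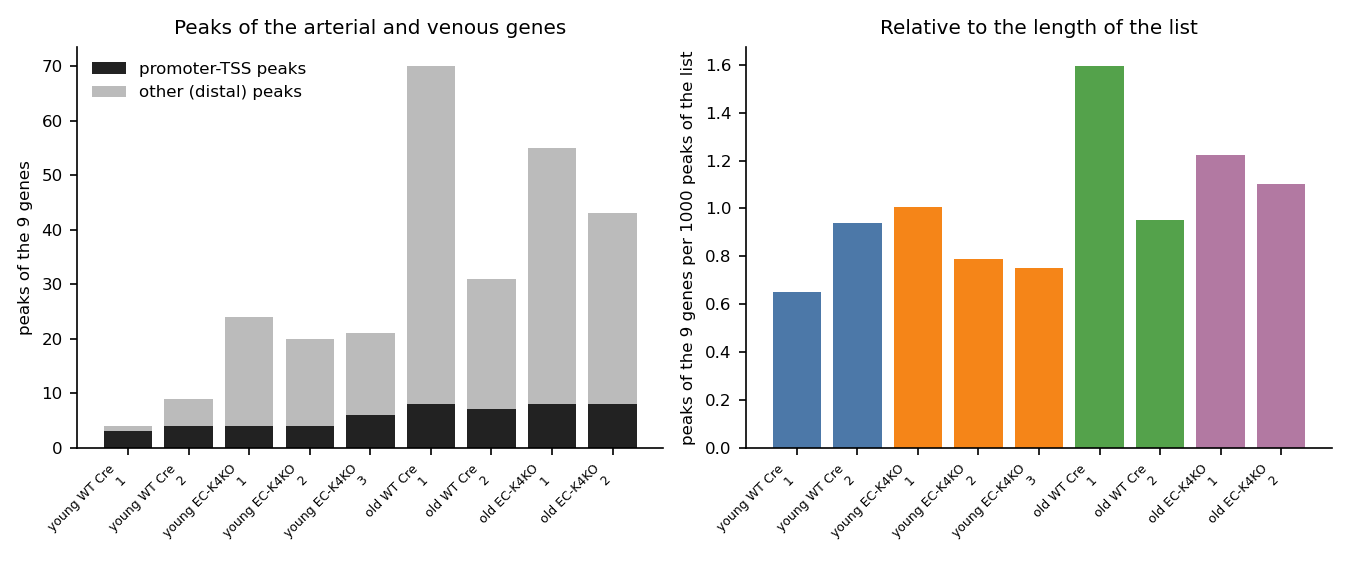
Left, number of peaks named for the 9 genes in each library, split into promoter-TSS peaks (black) and all other peaks (grey). Right, the same peaks per 1000 peaks of the list, coloured by group; the counts run from 4 in a young WT Cre library to 70 in an old WT Cre library, whereas the values per 1000 peaks run from 0.650 to 1.59.

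Promoter-TSS peaks made up 52 of the 277 peaks (18.8%, against 24.5% of all peaks) and the other 225 are called distal here. The class is that of the deposited annotation. Peaks of the Unc5b and Vegfc promoter regions that it calls exon, 107 and 120 bp from the TSS, therefore count as distal. Promoter peaks of the 9 genes had a median width of 546 bp and distal peaks 312 bp, close to the medians of all promoter peaks (558 bp) and all distal peaks (351 bp). By library, the median width of the genes' promoter peaks was 324 and 359 bp in young WT Cre, 554 to 844 bp in young EC-K4KO, 463 and 493 bp in old WT Cre, and 660 and 629 bp in old EC-K4KO. Over all genes the same medians were 366 and 390 bp, 499 to 571 bp, 565 and 587 bp, and 640 and 630 bp. Both young WT Cre libraries had the narrowest promoter peaks, for these genes and for all.

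Merging peaks that share at least 1 bp gave 120 regions for the 9 genes. Of these, 79 (65.8%) were seen in 1 library, compared with 57.3% of all 92495 regions. Efnb2 and Nr2f2, which border long stretches without other genes, held 63 of the 79, and 58 of the 79 lay over 100 kb from the TSS. The first old WT Cre library alone supplied 36 of them and the first young EC-K4KO library 11, against 0 to 5 in 6 others and 17 in the first old EC-K4KO library. The other 41 regions recurred in at least 2 libraries, 9 in at least 7 and 4 in all 9.

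**Figure D2:**
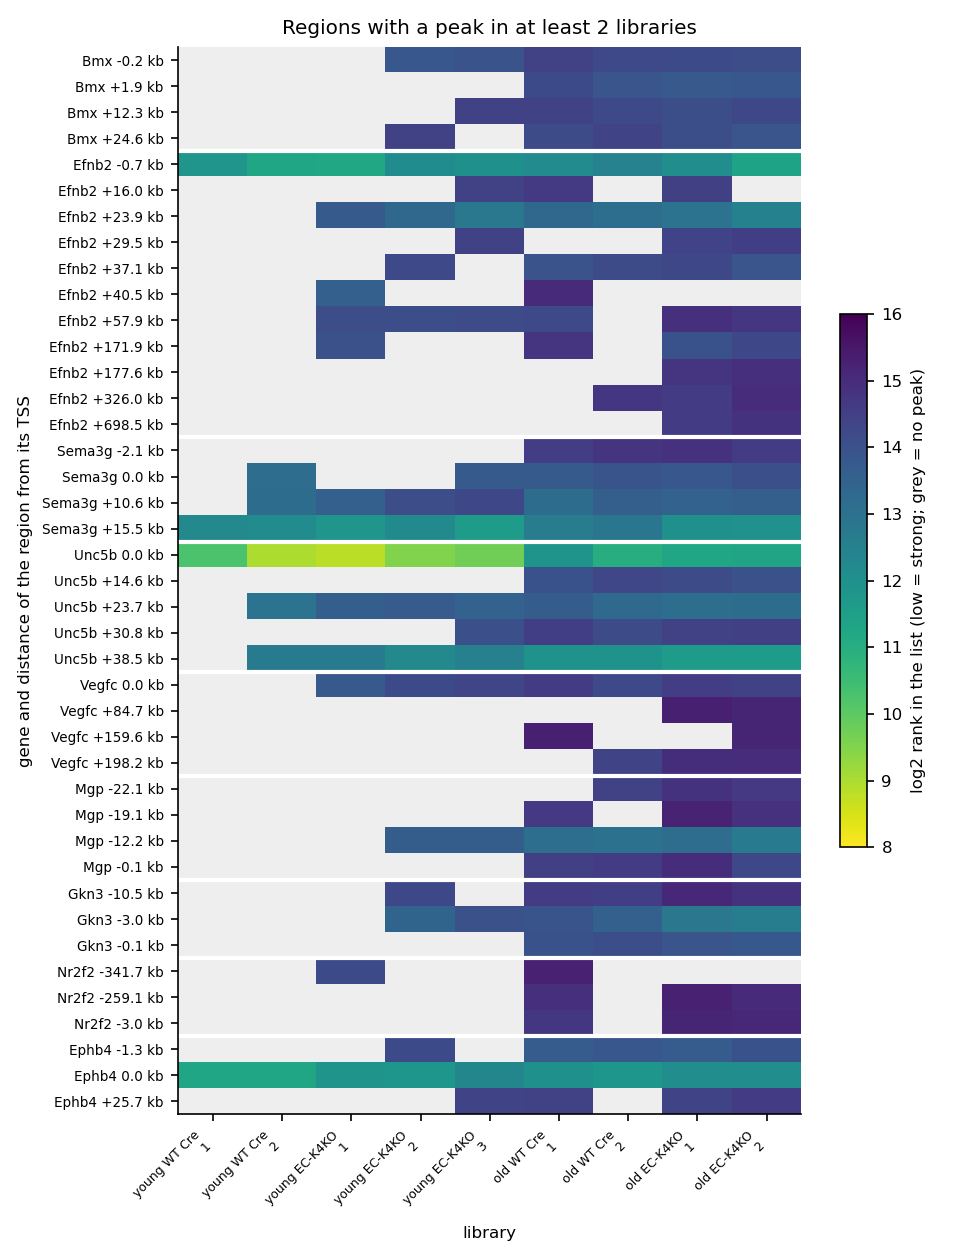
Each row is one of the 41 regions of the 9 genes found in at least 2 libraries, named by gene and by distance from the TSS in kb, and each column is a library. Colour gives the log2 rank of the peak in its list, yellow being strong and dark purple weak, and grey marks no peak; 4 rows are filled in all 9 libraries and 33 are grey in both young WT Cre libraries.

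Among the recurrent regions, 33 were lacked by both young WT Cre libraries, 15 of the 41 were seen in old libraries only (against 34.5% of 39508 recurrent regions of all genes) and 0 in young libraries only (against 1.00%). Most of the 33 were weak where they occurred. Their best rank in any library had a median of 18694, and it lay within the first 6157, the length of the shortest list, for 1 region, and within the first 9598 for 3. Over all genes, 30525 regions were lacked in the same way, with a median best rank of 17378. Of these, 5.43% reached the first 6157 and 16.1% the first 9598, beside 3.03% and 9.09% of the 33.

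A region was counted as gained in a group if at least 2 of its libraries had it and neither young WT Cre library did. Young EC-K4KO gained 6 of the 120 regions (5%, against 10.2% of all regions), namely the promoters of Bmx and Vegfc, regions near Mgp and Gkn3, and 2 of Efnb2. Old WT Cre gained 16 (13.3%, against 17.4% of all) and old EC-K4KO gained 29 (24.2%, against 26.6%). None of these 3 shares exceeded the background. Regions of 1 library, which cannot be gained, stay in both totals, at 65.8% of the 120 and 57.3% of all. Among regions in at least 2 libraries, old EC-K4KO gained 29 of 41, a larger share than over all genes (24562 of 39508). The shares of old WT Cre (16 of 41, against 16105) and young EC-K4KO (6 of 41, against 9428) were smaller. A loss needed a region in both young WT Cre libraries and in none of the group. Only the 4 regions found in all 9 libraries were in both, so no loss could be counted. Leaving out young EC-K4KO replicate 2 or 3 lowered the gains of young EC-K4KO to 3. Leaving out old WT Cre replicate 2 or old EC-K4KO replicate 2, with 1 library then enough for a gain, raised those of the old groups to 62 and 47.

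Unc5b, which encodes a netrin receptor of arterial and sprouting endothelium, had the strongest peak of all 9 genes. Its promoter ranked lower, and 1 region of its first intron higher, in all old libraries than in all young ones that had them. The promoter region (chr10:60831161-60831969, mm10) ranked 1227 and 503 in young WT Cre, 454, 729 and 854 in young EC-K4KO, 3738 and 2067 in old WT Cre, and 2529 and 2562 in old EC-K4KO. All 4 old libraries ranked it below all 5 young libraries. A region in intron 1, 38.5 kb into the gene (chr10:60792787-60793431), was absent from the first young WT Cre library, ranked 6730 in the second, 6643, 4797 and 5889 in young EC-K4KO, 3778 and 3840 in old WT Cre, and 3132 and 3148 in old EC-K4KO. Here every old library ranked the region above every young library that had it.

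The rank number of the Unc5b promoter region was 3.70 times as high in old as in young libraries of the same genotype (1.89 ± 0.32 on the log2 scale, difference ± SE from limma, which gave an adjusted p of 0.00317). The two-sided exact permutation test, which has 60 arrangements and a smallest p of 0.0167, gave p = 0.0167 and an adjusted p of 0.0885 over 4872 regions found in all 9 libraries, and so did not pass the threshold of 0.05. The groups did not overlap in either genotype for 1 of the 4 regions of these genes tested, against 21.0% of all 4872, and limma called a higher rank number in old for 19.6% of them. The median difference over all 4872 regions was 0.17. As a percent of the list the difference was 0.39 (exact adjusted p = 0.570), against a median of -1.33 over all regions. On both scales the promoter's difference lay above the median of all regions, and its distance from that median was not tested. By genotype the difference was -0.19 on the log2 scale (exact p = 0.583), within the spread of the libraries.

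The summed peak width of the Unc5b promoter region was 324 and 360 bp in young WT Cre, 378, 615 and 571 bp in young EC-K4KO, 591 and 616 bp in old WT Cre, and 809 and 688 bp in old EC-K4KO. Young WT Cre had the narrowest and old EC-K4KO the widest peaks. Width differed by 0.68 with age (exact p = 0.0333, adjusted p = 0.0769, limma adjusted p = 0.0101) and by 0.44 with genotype (exact p = 0.05, adjusted p = 0.103, limma adjusted p = 0.0643) on the log2 scale. Relative to the median width of each library the age difference was 0.20 (exact adjusted p = 0.347). As a percent of the list the promoter stood at 19.9 and 5.24 in young WT Cre, 1.90 to 3.05 in young EC-K4KO, 8.52 and 6.35 in old WT Cre, and 5.62 and 6.56 in old EC-K4KO, so on that scale the shortest list placed it lowest. Its deposited -log10 p was 10.9 and 16.6 in young WT Cre, 41.5 to 48.4 in young EC-K4KO, 52.9 and 53.6 in old WT Cre, and 104 and 84.0 in old EC-K4KO. That value was higher in every old library than in every young one.

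Intron 1 of Unc5b held 3 further recurrent regions, and they did not order the groups alike. The region 23.7 kb into the gene (chr10:60807370-60808715) was absent from the first young WT Cre library and ranked 7971 in the second, 12311, 13272 and 11492 in young EC-K4KO, 12757 and 9830 in old WT Cre, and 8911 and 9245 in old EC-K4KO. The region 30.8 kb into the gene (chr10:60800449-60801213) ranked 17021 in 1 young EC-K4KO library, 23220 and 18323 in old WT Cre, and 22364 and 23119 in old EC-K4KO, so there the old groups overlapped. The region 14.6 kb into the gene (chr10:60816865-60817187) appeared in no young library and ranked 16361 and 20049 in old WT Cre and 18584 and 16667 in old EC-K4KO, which overlapped too.

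Between the ages of EC-K4KO, 10 regions of the 9 genes were found in all 5 libraries. The Unc5b regions at 38.5 and 23.7 kb ranked higher in old than in young libraries without overlap (2 of 10, against 20.3% of 11701 such regions). The promoters of Unc5b and Vegfc and the Efnb2 region 57.9 kb from its TSS ranked lower (3 of 10, against 31.5%). As a percent of the list, 8 of the 10 stood higher in old EC-K4KO, the Vegfc promoter among them, against 59.2% of regions, and the Unc5b promoter alone stood lower, against 4.71%.

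**Figure D3:**
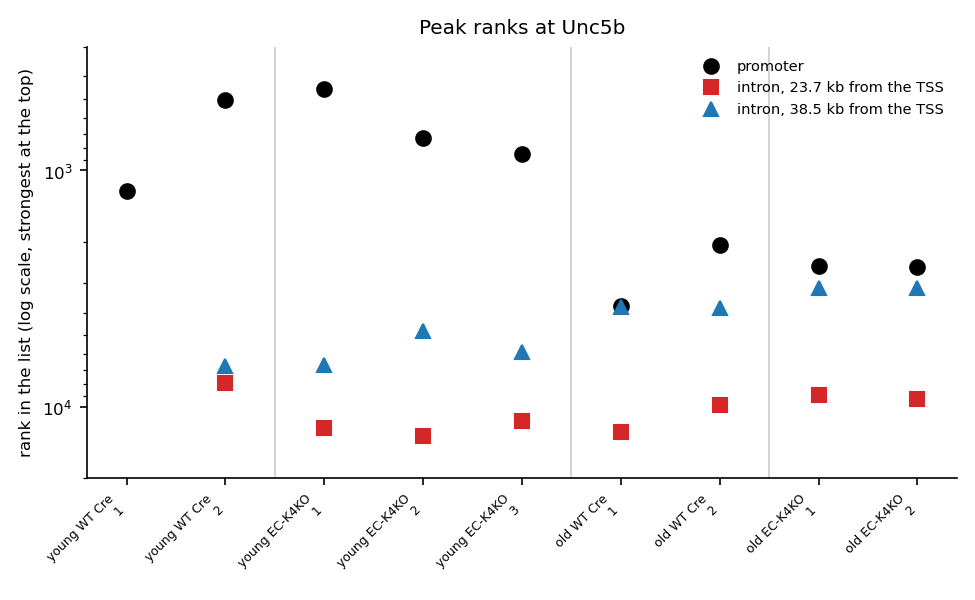
Rank in the list (log scale, strongest at the top) of 3 Unc5b regions in each of the 9 libraries, with vertical lines between groups. The promoter (black circles) ranked between 454 and 1227 in young and between 2067 and 3738 in old libraries, while the intronic region 38.5 kb into the gene (blue triangles) ranked between 4797 and 6730 in the 4 young libraries that had it and between 3132 and 3840 in old ones.

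The 2 Unc5b windows are shown because age ordered the libraries by rank in opposite ways at the promoter and at the intron. Each is 200 bp of the mm10 (GRCm38) sequence around the stretch that the most libraries covered, read 5′ to 3′ on the strand of the gene, and capitals mark matches on either strand to CCNCNCCC, a KLF-type motif, or CNGGAA, an ETS-type motif, with overlapping matches run together. The promoter window (chr10:60831481-60831680, reverse strand) held 5 KLF-type and 0 ETS-type matches and 79% G and C, whereas the intronic window (chr10:60792964-60793163, reverse strand) held neither motif and 59% G and C.
Unc5b promoter: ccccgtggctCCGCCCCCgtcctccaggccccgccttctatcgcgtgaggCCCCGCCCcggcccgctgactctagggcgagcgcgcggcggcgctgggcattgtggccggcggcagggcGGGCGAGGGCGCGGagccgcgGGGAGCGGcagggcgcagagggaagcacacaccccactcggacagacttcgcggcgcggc
Unc5b intron: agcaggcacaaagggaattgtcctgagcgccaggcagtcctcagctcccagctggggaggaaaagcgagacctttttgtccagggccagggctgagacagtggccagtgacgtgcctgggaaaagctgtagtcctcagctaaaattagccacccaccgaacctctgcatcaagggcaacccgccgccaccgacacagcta

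Sema3g, a secreted semaphorin made by arterial ECs, had its most regular peak not at the promoter but 15.5 kb from the TSS, beyond the 3′ end of the gene (chr14:31232693-31234208). That region ranked 4830 and 4511 in young WT Cre, 3639, 4622 and 3149 in young EC-K4KO, 6365 and 7383 in old WT Cre, and 4019 and 3978 in old EC-K4KO. Old WT Cre ranked it lowest and did not overlap any other group. Its summed peak width was 619 and 492 bp in young WT Cre, 673, 1157 and 891 bp in young EC-K4KO, 1486 and 1516 bp in old WT Cre, and 1410 and 1337 bp in old EC-K4KO. Every old library had a wider peak here than every young one.

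EC-K4KO libraries ranked the Sema3g region higher by 0.55 on the log2 scale within age, which missed the threshold (exact p = 0.05, adjusted p = 0.313, limma adjusted p = 0.223). Its peak was 2.05 times as wide in old as in young libraries (1.04 ± 0.16 on the log2 scale). That width difference had exact p = 0.0333 and an adjusted p of 0.0769, whereas limma gave an adjusted p of 0.00357. The median over all 4872 regions was 0.47, and relative to the median of the library the Sema3g difference was 0.55 (exact adjusted p = 0.215). Width by age did not overlap in either genotype for 2 of the 4 regions of these genes, Sema3g and Unc5b, against 49.3% of all regions.

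By contrast the Sema3g promoter (chr14:31217678-31218049) was a weak and irregular peak, found in 6 libraries at ranks from 9078 to 16992. A region over exon 16 (chr14:31228071-31228626) was found in all but the first young WT Cre library, at ranks from 9141 to 19635, and one 2.08 kb before the TSS (chr14:31215570-31216052) was found in the 4 old libraries only, at ranks from 23741 to 29928. The window at the 15.5 kb region (chr14:31233139-31233338, forward strand), printed as the most regular distal region of the set, held 1 ETS-type and 0 KLF-type matches and 48% G and C.
Sema3g distal: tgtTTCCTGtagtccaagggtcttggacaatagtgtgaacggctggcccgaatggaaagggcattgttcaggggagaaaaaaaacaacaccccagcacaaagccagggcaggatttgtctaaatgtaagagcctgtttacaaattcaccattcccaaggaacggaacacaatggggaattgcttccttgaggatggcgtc

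Efnb2, the gene of the arterial ligand ephrin-B2, kept a promoter peak in all 9 libraries, and its promoter showed no difference past the test by genotype or by age. The promoter region (chr8:8660740-8662069) ranked 3639 and 2515 in young WT Cre, 2394, 4406 and 4060 in young EC-K4KO, 4469 and 5554 in old WT Cre, and 4370 and 2647 in old EC-K4KO. Old WT Cre ranked it below every other library, while the other 3 groups overlapped. The difference between genotypes was -0.17 (exact p = 0.633) and that between ages 0.34 (exact p = 0.3) on the log2 scale, over 2279 genes with a promoter peak in every library. Its width was 879 and 358 bp in young WT Cre, 993, 1039 and 1166 bp in young EC-K4KO, 1086 and 1191 bp in old WT Cre, and 1137 and 830 bp in old EC-K4KO.

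Within intron 2 of Efnb2, a region 23.9 kb from the TSS (chr8:8636650-8637229) was absent from both young WT Cre libraries. It ranked 13511, 10032 and 7171 in young EC-K4KO, 10293 and 8753 in old WT Cre, and 8015 and 5731 in old EC-K4KO, where it came nearest to the top. Both old EC-K4KO ranks lay above both old WT Cre ranks. A second region, 57.9 kb from the TSS beyond the end of the gene (chr8:8602646-8603281), was found in all 3 young EC-K4KO libraries and 3 of the 4 old ones at ranks from 17220 to 30504. In all, Efnb2 had 1 and 2 peaks in young WT Cre, 10, 6 and 7 in young EC-K4KO, 20 and 5 in old WT Cre, and 17 and 10 in old EC-K4KO.

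The promoter window (chr8:8661256-8661455) and the intronic window (chr8:8636814-8637013), both read on the reverse strand, are given side by side because the first was found in every library and the second in none of young WT Cre. The promoter window held 4 KLF-type and 1 ETS-type matches and 71.5% G and C. The intronic window held 0 KLF-type and 2 ETS-type matches and 44% G and C.
Efnb2 promoter: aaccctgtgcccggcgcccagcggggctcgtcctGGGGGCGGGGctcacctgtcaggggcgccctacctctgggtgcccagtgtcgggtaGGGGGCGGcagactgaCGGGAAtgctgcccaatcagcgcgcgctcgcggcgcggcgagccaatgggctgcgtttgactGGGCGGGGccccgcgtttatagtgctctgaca
Efnb2 intron: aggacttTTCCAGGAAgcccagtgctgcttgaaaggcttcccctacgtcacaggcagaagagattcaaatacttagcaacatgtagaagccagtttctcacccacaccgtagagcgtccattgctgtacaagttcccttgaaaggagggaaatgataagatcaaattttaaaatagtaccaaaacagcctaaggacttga

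Ephb4, the venous receptor of ephrin-B2, had a promoter peak (chr5:137349692-137350529) that stood further down the list and was wider in EC-K4KO of each age. It ranked 2459 and 2480 in young WT Cre, 3733, 3564 and 5165 in young EC-K4KO, 4095 and 3572 in old WT Cre, and 4352 and 4314 in old EC-K4KO. Within each age, all EC-K4KO libraries ranked it below the WT Cre libraries. Measured as a percent of the list it stood at 39.9 and 25.8 in young WT Cre, 15.7, 14.1 and 18.5 in young EC-K4KO, 9.33 and 10.97 in old WT Cre, and 9.67 and 11.04 in old EC-K4KO, so on that scale young EC-K4KO stood above young WT Cre and the old groups overlapped. Its deposited -log10 p was 7.87 and 8.98 in young WT Cre, 12.7, 21.7 and 18.1 in young EC-K4KO, 49.6 and 39.3 in old WT Cre, and 73.3 and 60.3 in old EC-K4KO, higher in EC-K4KO at both ages. Its width was 302 and 430 bp in young WT Cre, 513, 695 and 765 bp in young EC-K4KO, 679 and 556 bp in old WT Cre, and 750 and 725 bp in old EC-K4KO. Here too the genotypes did not overlap at either age.

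The Ephb4 promoter rank number was 1.37 times as high in EC-K4KO (0.46 ± 0.22 on the log2 scale, exact p = 0.0167, adjusted p = 0.339, limma adjusted p = 0.397) and did not pass. As a percent of the list the sign turned (-0.49, exact adjusted p = 0.157), where the median of all genes was -0.93. Genotypes did not overlap at either age, with a higher rank number in EC-K4KO, for Ephb4 but not Efnb2 of the 2 genes tested, against 4.74% of the 2279 genes. The width was 1.47 times as great in EC-K4KO (0.56 ± 0.16 on the log2 scale, exact p = 0.0167, adjusted p = 0.0625), and limma gave an adjusted p of 0.0346. The median width difference of all genes was 0.34, and relative to the median of the library the Ephb4 difference was 0.19 (exact adjusted p = 0.369).

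Wider promoter peaks in EC-K4KO without overlap were seen for Ephb4 of the 2 genes, against 34.9% of all genes, and for Ephb4 and Unc5b of the 4 regions, against 32.9% of all regions. With age, 0 of the 2 promoters stood apart in rank, against 18.0% of genes, and 0 of 2 in width, against 44.3%. The median difference over Efnb2 and Ephb4 in promoter rank was 0.14 by genotype and 0.35 by age, beside 0.01 and 0.07 over all 2279 genes. In promoter width it was 0.45 by genotype and 0.46 by age, beside 0.34 and 0.43 over all genes.

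A further pair of Ephb4 regions recurred, one 1.26 kb before the TSS (chr5:137348696-137349044) in all 4 old libraries and 1 young EC-K4KO library, at ranks from 13012 to 18855, and one 25.7 kb from the TSS (chr5:137375626-137375957, intergenic in the deposited annotation) in 4 libraries. The promoter window (chr5:137349946-137350145, forward strand), shown because the genotypes did not overlap there in rank or width, held 4 KLF-type and 0 ETS-type matches and 66% G and C.
Ephb4 promoter: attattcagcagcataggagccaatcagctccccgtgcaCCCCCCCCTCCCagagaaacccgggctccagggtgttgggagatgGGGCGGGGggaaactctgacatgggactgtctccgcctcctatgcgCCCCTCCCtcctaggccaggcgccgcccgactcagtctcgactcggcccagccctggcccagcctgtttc

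**Figure D4:**
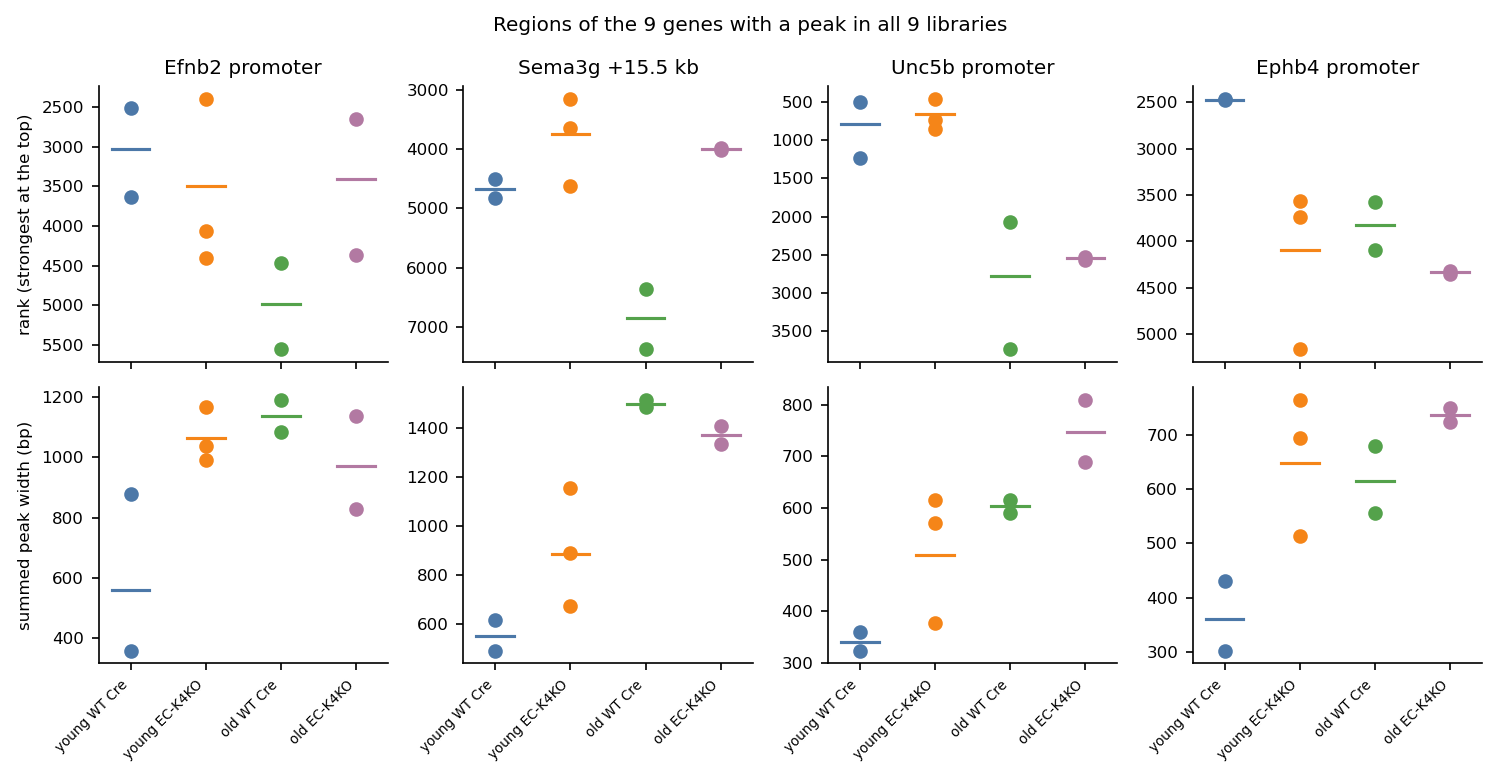
Rank (top row, strongest at the top) and summed peak width in bp (bottom row) of the 4 regions found in all 9 libraries, where each point is a library, short lines are the geometric means of a group and the linear axes do not start at 0. The Unc5b promoter separates by age in rank, and the Ephb4 promoter separates by genotype within each age in rank and width.

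In old mice, 24 regions of the 9 genes were found in all 4 libraries. Of these, 10 ranked higher in both old EC-K4KO than in both old WT Cre libraries, against 20.7% of 23788 such regions, and 2 ranked lower, against 25.8%. The 10 were the Unc5b regions at 38.5 and 23.7 kb, the Sema3g 15.5 kb region, the Efnb2 promoter and its region at 23.9 kb, the Gkn3 promoter and its region 3.02 kb upstream, and the Bmx promoter and its regions at 1.91 and 24.6 kb. The 2 were the Ephb4 promoter and the Gkn3 region 10.5 kb upstream. Of the 24 regions, 22 belong to arterial genes and 2 to Ephb4, and arterial and venous genes were not tested against each other. As a percent of the list 11 of the 24 stood higher, against 24.7% of regions, and 1 lower, against 8.84%. Of the 9 regions also found in all young EC-K4KO libraries, 5 ranked higher, against 21.1% of 11594, and 1 lower, against 23.5%. With 2 libraries against 2, no exact p below 0.33 can be reached for any of them. The X chromosome, which holds Bmx, had 1.52% of the peaks in the first old WT Cre library. In the other old libraries it had 1.93% to 2.06%, and the part of this in the Bmx ranks was not tested.

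Nr2f2, which encodes the venous regulator COUP-TFII, had no promoter-TSS peak in any list. Its peaks numbered 0 and 0 in young WT Cre, 6, 1 and 0 in young EC-K4KO, 17 and 3 in old WT Cre, and 9 and 3 in old EC-K4KO, and 31 of its 34 regions were seen in 1 library. A region 2.96 kb before the TSS (chr7:70369461-70370172) was found in 3 old libraries at ranks from 26900 to 37206. Strong accessible chromatin did lie inside the gene, but under another name. A region in its first intron (chr7:70361414-70362165), which lies 821 bp upstream of the start of the shorter Nr2f2 transcript annotated in GENCODE, is named in the deposited annotation for the gene B130024G19Rik on the opposite strand, at a distance of -3602 to -3491 bp.

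That intronic region was absent from both young WT Cre libraries and ranked 4190, 2554 and 6430 in young EC-K4KO, 7323 and 6943 in old WT Cre, and 6691 and 5629 in old EC-K4KO. It lies outside the 277 peaks and was picked after its values were seen. Ranks 4190, 2554 and 5629 lay within the 6157 peaks of the shorter young WT Cre list, and 6430, 7323, 6943 and 6691 beyond it. All lay within the 9598 peaks of the longer one. Of all regions that young WT Cre lacked, the best rank reached the first 6157 for 5.43% and the first 9598 for 16.1%. The part of list length in this absence was not tested. Counting regions inside gene bodies in place of deposited names, 3 regions carried another gene's name, 2 of them in Unc5b. The window (chr7:70361709-70361908, reverse strand), printed because it is the deposited region inside the Nr2f2 gene, held 1 KLF-type and 0 ETS-type matches and 66.5% G and C.
Nr2f2 intron 1: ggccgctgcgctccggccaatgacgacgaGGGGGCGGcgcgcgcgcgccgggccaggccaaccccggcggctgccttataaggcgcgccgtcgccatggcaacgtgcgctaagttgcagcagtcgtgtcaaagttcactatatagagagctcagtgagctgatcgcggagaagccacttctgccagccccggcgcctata

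Mgp, which encodes matrix Gla protein, an inhibitor of calcification, had a promoter peak in old libraries only. The promoter region (chr6:136875669-136876035) was found in no young library and in all 4 old ones, at ranks 23090 and 24492 in old WT Cre and 32018 and 19859 in old EC-K4KO. A higher-ranked region 12.2 kb before the TSS (chr6:136887763-136888219) was found at ranks 12645 and 12839 in 2 young EC-K4KO libraries, 8779 and 8209 in old WT Cre, and 9026 and 6504 in old EC-K4KO, and in no young WT Cre library. Old libraries ranked it above both young libraries that had it. Smooth muscle cells also express Mgp, and 3 of the 4 old libraries had promoter peaks of 3 to 5 of the 10 mural genes, while the first old WT Cre library, with 0, had the Mgp promoter peak too. Their part in the Mgp result was not tested.

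Distal Mgp peaks numbered 0 and 0 in young WT Cre, 1, 1 and 1 in young EC-K4KO, 2 and 2 in old WT Cre, and 4 and 3 in old EC-K4KO. Of the 9 genes, only Mgp had more distal peaks in every EC-K4KO library than in WT Cre of the same age. The difference was 1.25 peaks (exact p = 0.0167, adjusted p = 0.698). In the same way 3.52% of the 20035 genes with any peak, distal or not, stood apart. Limma on log2(number + 1) gave an adjusted p of 0.00127 for Mgp, whose small counts did not vary within any group but old EC-K4KO. Per 1000 peaks of the list the Mgp difference was 0.0342 (exact adjusted p = 0.704). The young EC-K4KO peaks ranked 16254, 12645 and 12839, beyond the ends of both young WT Cre lists (6157 and 9598 peaks). The first of them lay 13.4 kb before the TSS in a region of that library alone, and the other 2 in the region at 12.2 kb. The upstream window (chr6:136887914-136888113, reverse strand), given as the strongest Mgp region, held 2 ETS-type and 0 KLF-type matches and 50% G and C.
Mgp upstream: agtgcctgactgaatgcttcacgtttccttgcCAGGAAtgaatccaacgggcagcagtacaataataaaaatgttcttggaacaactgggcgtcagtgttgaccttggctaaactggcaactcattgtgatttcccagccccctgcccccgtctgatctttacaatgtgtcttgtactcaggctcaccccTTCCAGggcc

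Gkn3, a gastrokine gene known as a marker of brain arterial ECs, also had its promoter peak in old libraries only. The promoter (chr6:87388799-87389125) was found at ranks 16292 and 17314 in old WT Cre and 15335 and 14349 in old EC-K4KO. The region 3.02 kb before the TSS (chr6:87391634-87392307) ranked 11086 and 16573 in 2 young EC-K4KO libraries, 15488 and 12008 in old WT Cre, and 7205 and 6220 in old EC-K4KO. Old EC-K4KO stood above every other library there. At the region 10.5 kb before the TSS (chr6:87399270-87400195) the order was the opposite, with rank 19842 in 1 young EC-K4KO library, 24350 and 23438 in old WT Cre, and 34384 and 28857 in old EC-K4KO.

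Bmx, a Tec-family kinase of arterial endothelium, lies on the X chromosome. Its promoter (chrX:164258026-164258693) was absent from young WT Cre and from the first young EC-K4KO library and ranked 14476 and 15824 in the other young EC-K4KO libraries, 21779 and 19172 in old WT Cre, and 18879 and 17811 in old EC-K4KO. Intronic regions 1.91, 12.3 and 24.6 kb from the TSS were found in 4, 5 and 5 libraries, all 4 old ones each time. The first young EC-K4KO library, which also lacked all Gkn3 peaks and the Mgp region 12.2 kb before the TSS, had 1.17% of its peaks on the X chromosome, against 1.52% to 2.06% in the others, and the part of this in the Bmx result was not tested.

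Vegfc, which encodes a growth factor best known for lymphatic growth, had a promoter region (chr8:54076932-54078185) in all 7 libraries outside young WT Cre. It ranked 13894, 18669 and 20655 in young EC-K4KO, 25164 and 19084 in old WT Cre, and 23986 and 22448 in old EC-K4KO. Distal Vegfc peaks were found in old libraries only, 7 and 2 in old WT Cre and 4 and 4 in old EC-K4KO. These include the promoter region peak ranked 19084 in old WT Cre, 120 bp from the TSS, which the deposited annotation calls exon.

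Distal peaks of the 9 genes were more numerous in old libraries, whose lists are longer, but none of the 9 passed the exact test after adjustment. Old libraries had more of them than young libraries of the same genotype, without overlap, for 6 of the 9 genes (Bmx, Ephb4, Mgp, Sema3g, Unc5b and Vegfc). The same held for 17.2% of the 20035 genes with any peak, distal or not. Each of the 6 had exact p = 0.0167, the smallest that the test can give, and an adjusted p of 0.120. The mean differences ranged from 1.25 peaks for Sema3g to 4.25 for Vegfc. Per 1000 peaks of the list, 4 of the 9 (Bmx, Ephb4, Mgp and Vegfc) still stood apart, against 9.19% of genes, while Sema3g turned to -0.06 (exact adjusted p = 0.363). By genotype the median difference over the 9 genes was 0.33 peaks, and by age 2.67 peaks, beside 0.25 and 0.5 over all genes. Counting only the strongest 6157 peaks of each list, the length of the shortest, the median difference by age was 0, with Sema3g at -0.5.

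Across the whole lists, 0 genes or regions passed an adjusted p of 0.05 by the exact test for rank, width or distal number, by genotype or by age, although at an unadjusted p under 0.05 there were 211 of 2279 genes for promoter rank by genotype, 662 by age, 961 for promoter width by genotype, 889 by age, 824 of 20035 for distal number by genotype and 3526 by age. Limma called 0, 591, 810, 1489, 1329 and 5394 for the same families. The exact p cannot fall below 0.0167. After adjustment a gene or region can therefore pass only where a large share of its family reaches that floor. Not passing is thus no evidence that a gene was unchanged. For regions the unadjusted counts were 594 of 4872 for rank by genotype, 1467 by age, 1926 for width by genotype and 2112 by age, and limma called 30, 1425, 1506 and 3280. With rank taken as a percent of the list, the same exact test passed 850 of 2279 genes, Ephb4 among them (-1.15, adjusted p = 0.0447), and 1804 of 4872 regions by age, and 0 of either by genotype.

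Other genes of the vessel axis were read from lists of 20 further arterial, 17 further venous and 10 capillary genes. A promoter peak in all 9 libraries was found for 3 arterial (Dll4, Hey1 and Jag1), 3 venous (Ctsc, Ier3 and Tmsb10) and 1 capillary gene (Slco1c1), and 0 of these 7 passed the exact test for rank or width. The promoter rank number of Hey1, a Notch target, differed by -0.60 between genotypes and that of the protease gene Ctsc by 0.77, each with exact p = 0.0167 and an adjusted p of 0.339, and both were named after their values were seen. By age the rank number differed by 1.29 for Hey1 (exact p = 0.0167, adjusted p = 0.0883) and by -1.45 for Slco1c1 (exact p = 0.0333, adjusted p = 0.115). Neither overlapped between ages in either genotype. Distal peak number stood higher in old mice without overlap for 12 of 20 arterial, 7 of 15 venous, 6 of 10 capillary and 8 of 12 pan-endothelial genes tested. The share of the 9 genes, 6 of 9, was no higher than that of the pan-endothelial genes, and a difference between lists was not tested.

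Over the 9 libraries, the promoter whose log2 rank, centred on the median of each library, most resembled that of Ephb4 was that of Ampd2 (Pearson r = 0.963), and for Efnb2 it was that of Arhgap12 (r = 0.827), as the highest of 2279 genes. These points share libraries and group structure, and no test was made.

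The sequence windows were compared with the same 200 bp windows of all regions found in at least 7 libraries. The Mgp region shown was found in 6 libraries and does not itself meet that rule. The 3 promoter windows each held at least 4 KLF-type matches, where 62.1% of 7134 promoter windows held any and the mean was 1.37. The share of promoter windows with at least 4 was not counted, so an excess cannot be judged. These 3 windows were picked and not sampled, and they held 79% (Unc5b), 71.5% (Efnb2) and 66% (Ephb4) G and C. Of the 5 distal windows, 1 held a KLF-type match, against 37.6% of 5079 distal windows, and 3 held an ETS-type match, against 63.1%. 3 further motifs were searched on both strands, namely ACAANG (SOX-type), AGGTCA (NR2F-type) and TGGGAA (RBPJ-type). They occurred in 4, 1 and 3 of the 8 windows, and in 40.7%, 15.1% and 20.7% of distal and 18.1%, 6.28% and 13.3% of promoter windows. Median G and C content was 66.5% in promoter and 54.5% in distal windows.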

How the data were processed

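Peak lists of Omni-ATAC-seq libraries from sorted brain ECs were analysed. As its methods state, reads were trimmed (TrimGalore) and aligned to mm10 (Bowtie2), duplicates and poorly mapped pairs were dropped, and MACS2 called broad peaks in each library separately. The deposited annotation came from HOMER, by its header. Deposited values per peak are a score, fold enrichment (a ratio over local background), -log10 p, which gave the ranks, and -log10 q. No read counts were used, so a test on reads was not rerun.

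Software was Python 3.11.15 (numpy 2.4.6, scipy 1.17.1, pandas 2.3.3, pysam 0.24.0, matplotlib 3.10.9) and R 4.3.3 (limma 3.58.1). Genotype within age and age within genotype were compared by an exact permutation test, 2-sided with 60 arrangements. Promoter rank and width were tested for every gene with a promoter-TSS peak in all 9 libraries, and region rank and width for every region in all 9. Distal peak number was tested for every gene with a peak of any kind in any library, and a gene without distal peaks counted as 0. P-values were adjusted by Benjamini-Hochberg within each of 10 families. Limma on the same values, with log2(number + 1) for peak numbers, was an alternative. Tests were checked on simulated data. The strongest promoter-TSS peak stood for a gene. Sequences were read from the GRCm38.p6 RefSeq genome. Members, lists and tests were chosen with earlier results of these data known, and tests of regions, the sets of regions compared between the old groups and between the EC-K4KO ages, regions inside gene bodies and their scaling alternatives were added after seeing the data. Genes named were the 9 members, Klf4, genes of the arterial, venous and capillary lists past the threshold (0 were), and the promoter most like each tested member. List genes named for having a peak in all 9 libraries, and Hey1 and Ctsc, were chosen after their values were seen.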

Additional observations from a re-analysis of the deposited data

Results flagged for a closer look

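Groups held 2 or 3 libraries, so none was searched for a single library far from its group. A genotype difference that changed with age was found for 2 measures by exact permutation (2-sided, 60 arrangements) of the interaction. The Efnb2 promoter peak was wider in EC-K4KO by 0.92 on the log2 scale in young mice and narrower (-0.23) in old mice, an interaction of 1.15 (exact p = 0.0333, adjusted p = 0.384 over 2279 genes). The young WT Cre libraries themselves differed, at 879 and 358 bp. The Sema3g region 15.5 kb from the TSS was wider in every young EC-K4KO library than in young WT Cre (0.68 on the log2 scale) and narrower in both old EC-K4KO libraries than in old WT Cre (-0.13), an interaction of 0.81 (exact p = 0.05, adjusted p = 0.374 over 4872 regions). Neither passed after adjustment.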

How the results depend on the processing

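Read depth and the length of the lists limit these results, since a young WT Cre list ends at 6157 or 9598 peaks, and rank and width both move with them. The median difference over Efnb2 and Ephb4 in promoter rank by genotype, 0.14, became -0.17 over the 3 genes that could be tested with the strongest peak within 1000 bp of the TSS or over any annotated TSS, -0.80 as a percent of the list, 0.54 by fold enrichment and -0.18 over the 4 regions. By age, 0.35 became -1.16 as a percent of the list, 0.11 among the genes tested and 1.29 by fold enrichment. Relative to the median of the library, the width differences became 0.0878 by genotype and 0.0280 by age. The median difference in distal peak number by age, 2.67, became 0.0489 per 1000 peaks, 2.17 with q under 0.01, 0 among the strongest peaks up to the shortest list, 2.25 over 3000 bp from the TSS, and 1.39 with limma or 1.48 with limma and the replicate block, both on the log2(number + 1) scale. The causes were not tested beyond the construction of each setting.

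Leaving out 1 library at a time gave 0.05 to 0.23 for rank by genotype, 0.26 to 0.44 for rank by age, 0.35 to 0.55 for width by genotype, 0.36 to 0.56 for width by age, 0.25 to 1 for distal number by genotype (1 without old WT Cre replicate 1) and 2.25 to 2.75 by age. Gained regions ranged from 3 to 9 in young EC-K4KO, 16 to 62 in old WT Cre and 29 to 47 in old EC-K4KO. Inside gene bodies in place of deposited names, old EC-K4KO gained 16.

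Signs turned in 26 of 502 single results. As a percent of the list these were Ephb4 (-0.49) in rank by genotype, and Efnb2 (-1.16), Ephb4 (-1.15, exact adjusted p = 0.0447) and Sema3g (-1.18) in rank by age. By fold enrichment it was Efnb2 (0.26) in rank by genotype. Relative to the median of the library these were Efnb2 (-0.0161) and Sema3g (-0.10) in width by genotype. In distal number by genotype these were Sema3g (-0.0579) and Unc5b (-0.0176) per 1000 peaks, Vegfc (0.5) and Nr2f2 (0.25) with q under 0.01, Vegfc (0.0147) and Nr2f2 (0.42) with limma, and Vegfc (0.0147) and Nr2f2 (0.74) with the replicate block. In distal number by age it was Sema3g, -0.0558 per 1000 peaks and -0.5 among the strongest peaks up to the shortest list.

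Over the fits without 1 library, signs turned in rank by genotype for Efnb2 (-0.35 to 0.0103) and the Unc5b promoter (-0.51 to 0.13), and in distal number by genotype for Efnb2 (-0.167 to 7.33), Unc5b (-0.167 to 0.833), Vegfc (-1.5 to 1) and Nr2f2 (-4.33 to 2.67). Limma brought 19 single results past the threshold. Replicate numbers were not taken to pair libraries, since the labels give no shared litter or day and deviations of same-numbered libraries correlated between -0.07 and 0.12. With the replicate block, limma called 365 genes in place of 810 for promoter width by genotype, 0 regions in place of 30 for rank by genotype and 560 in place of 1506 for region width by genotype, and the limma call for Ephb4 promoter width by genotype was lost (adjusted p = 0.0798).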
